A study of Mus musculus with 20 samples.

Results

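Glucocorticoid-responsive genes were followed mouse by mouse in the cerebellum of SCA7 and WT mice. The group holds 10 genes, the glucocorticoid receptor gene Nr3c1 and 9 of its target genes (Fkbp5, Tsc22d3, Sgk1, Zbtb16, Pdk4, Cdkn1a, Sult1a1, Ddit4 and Errfi1). They were listed by symbol and matched to the Ensembl identifiers of the read count table, which has 55401 genes, 21897 of them protein-coding. All 10 were found, and all 10 had enough reads to be tested in each comparison, with at least 156 reads per library.

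Libraries came from the cerebella of 20 C57BL/6J mice, with 1 cerebellum in each library. At the label time of 9 weeks there were 3 WT mice that had received AAV-shA4 and 3 untreated ones, and at 25 weeks 5 SCA7 140Q/5Q knock-in mice given AAV-shA4, 5 such mice that received AAV-shSCR and 4 untreated WT mice. AAV-shA4 is a PHP.eB vector that expresses an shRNA against expanded CAG repeats from an H1 promoter together with eGFP from a CMV promoter, AAV-shSCR is the same vector with a scrambled shRNA, and untreated mice received saline according to the methods. It is not given in the labels where the count of weeks begins. The paper counts from the injection, with 9 weeks for the treated WT mice and a time other than 25 weeks for the late mice. In the late experiment it gives the AAV-shSCR-treated SCA7 mice and the WT mice as males. No WT mouse received AAV-shSCR and no SCA7 mouse received saline, so in SCA7 mice the genotype and the vector cannot be told apart in a comparison to WT mice.

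Between 31465586 and 54570503 reads per library were counted on genes. At 9 weeks the depth did not overlap between AAV-shA4-treated mice (36245752 to 39208298 reads) and untreated mice (47455917 to 49212593 reads), and the part of depth in the results was not tested. Markers of granule cells, Purkinje cells, glia and vessels were present in each group, with 0 of 10 Purkinje cell and 0 of 10 granule cell markers without reads. The summed level of the 10 Purkinje cell markers was 7551 to 8858 CPM in the 2 SCA7 groups and 10733 to 12019 CPM in WT mice at 25 weeks, and that of the 10 oligodendrocyte markers was 4218 to 5330 CPM against 5740 to 6796 CPM. The summed level of 6 blood markers was 32.2 to 60.5 CPM in the SCA7 groups and 27.3 to 32.8 CPM in these WT mice. The first 2 sets do not overlap between genotypes, and of 9 marker sets in all a further one did not overlap with WT mice in each SCA7 group, the blood markers with AAV-shA4 (36.8 to 39.4 CPM) and those of Bergmann glia and astrocytes with AAV-shSCR (3758 to 4012 CPM against 4190 to 4306 CPM). Each comparison of SCA7 to WT mice below sets side by side cerebella that also differ in these markers, and the part of the markers in the results was not tested. In whole tissue, fewer cells of a type and less RNA per cell cannot be told apart.

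The glucocorticoid receptor rests in the cytoplasm in a complex with heat shock proteins and immunophilins. When corticosterone, the main glucocorticoid of rodents, binds to it, it moves to the nucleus and binds DNA, often at palindromes of a 6-base site. Blood corticosterone follows the time of day and rises with stress, so its target genes are known to vary with both. In the brain many of them are expressed in glia and vessels as well as in neurons.

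Letters of the 6-base receptor site were found at the start of 3 of these genes, and the full palindrome at Sgk1 alone. Windows of 300 bases around start sites (250 before and 50 after) were taken from RefSeq on build GRCm38.p6. Of the 10 genes, 8 have windows there, 17 in all, and Nr3c1 and Zbtb16 have none in that set. The full palindrome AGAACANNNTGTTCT was found on either strand in 3 of 32851 windows of all genes (0.00913%), and 1 of these 3 lies at Sgk1, where it begins 189 bases before the start site. The less strict palindrome GNACANNNTGTNC, which contains the full one, was found in 156 windows (0.475%), and among the 10 genes at Sgk1 alone. The single site TGTTCT, read on both strands, is part of the full palindrome and was found in 6233 windows (19.0%), and in 5 of the 17 windows of the group, which belong to Sgk1, Sult1a1 and Tsc22d3. From each of these 3 genes 1 window with such letters is printed 5′ to 3′ along the gene, for Sgk1 the one with the palindrome, and capitals mark each TGTTCT, its reverse complement AGAACA and the full palindrome of Sgk1. A match is a description of letters and not a measured binding site.
Sgk1, chr10:21993640-21993939, plus strand: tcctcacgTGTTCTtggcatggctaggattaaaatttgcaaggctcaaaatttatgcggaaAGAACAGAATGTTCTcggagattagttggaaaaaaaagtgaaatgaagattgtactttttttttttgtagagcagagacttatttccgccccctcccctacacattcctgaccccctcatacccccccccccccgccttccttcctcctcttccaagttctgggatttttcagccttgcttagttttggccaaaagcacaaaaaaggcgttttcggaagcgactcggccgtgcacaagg
Sult1a1, chr7:126676369-126676668, minus strand: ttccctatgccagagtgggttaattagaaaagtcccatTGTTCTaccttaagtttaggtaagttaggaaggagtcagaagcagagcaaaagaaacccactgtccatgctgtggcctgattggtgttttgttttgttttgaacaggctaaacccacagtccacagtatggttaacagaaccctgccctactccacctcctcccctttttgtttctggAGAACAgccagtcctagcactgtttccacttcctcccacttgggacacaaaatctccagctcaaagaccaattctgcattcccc
Tsc22d3, chrX:140600473-140600772, minus strand: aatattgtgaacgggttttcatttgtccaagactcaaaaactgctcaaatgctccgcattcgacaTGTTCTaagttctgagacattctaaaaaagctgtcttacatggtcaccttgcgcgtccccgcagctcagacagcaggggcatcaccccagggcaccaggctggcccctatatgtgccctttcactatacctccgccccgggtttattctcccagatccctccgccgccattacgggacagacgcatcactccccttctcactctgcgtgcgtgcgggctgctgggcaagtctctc
The palindrome of Sgk1 reads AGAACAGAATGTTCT and has a further single site upstream of it, 242 bases before the start site. At Sult1a1 the 2 single sites begin 212 and 34 bases before the start site and are in opposite orientation, and at Tsc22d3 the single site begins 185 bases before it. Sgk1 has 6 windows in the set, of which 3 hold at least 1 single site, and the other two of these, not printed, have 1 each, 195 and 13 bases before their own start sites.

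Levels are given as CPM, reads scaled to a common library size of 1000000 reads, after edgeR's TMM scaling over the 20 libraries. Divided by the length of the longest annotated transcript in kilobases, the mean levels of the untreated WT mice at 25 weeks ranged from 2.33 CPM per kilobase for Pdk4 to 38.6 for Tsc22d3. On this scale Tsc22d3 was followed by Sgk1 with 29.9, Ddit4 with 25.03 and Nr3c1 with 19.9. The targets Sult1a1 (4.87), Fkbp5 (3.55) and Zbtb16 (2.90) were near the lower end. Over the 20 mice, these 3 genes and Pdk4 were counted with 156 to 1104 reads per library, and Tsc22d3 and Sgk1 with 2591 to 6659 reads.

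**Figure D1:**
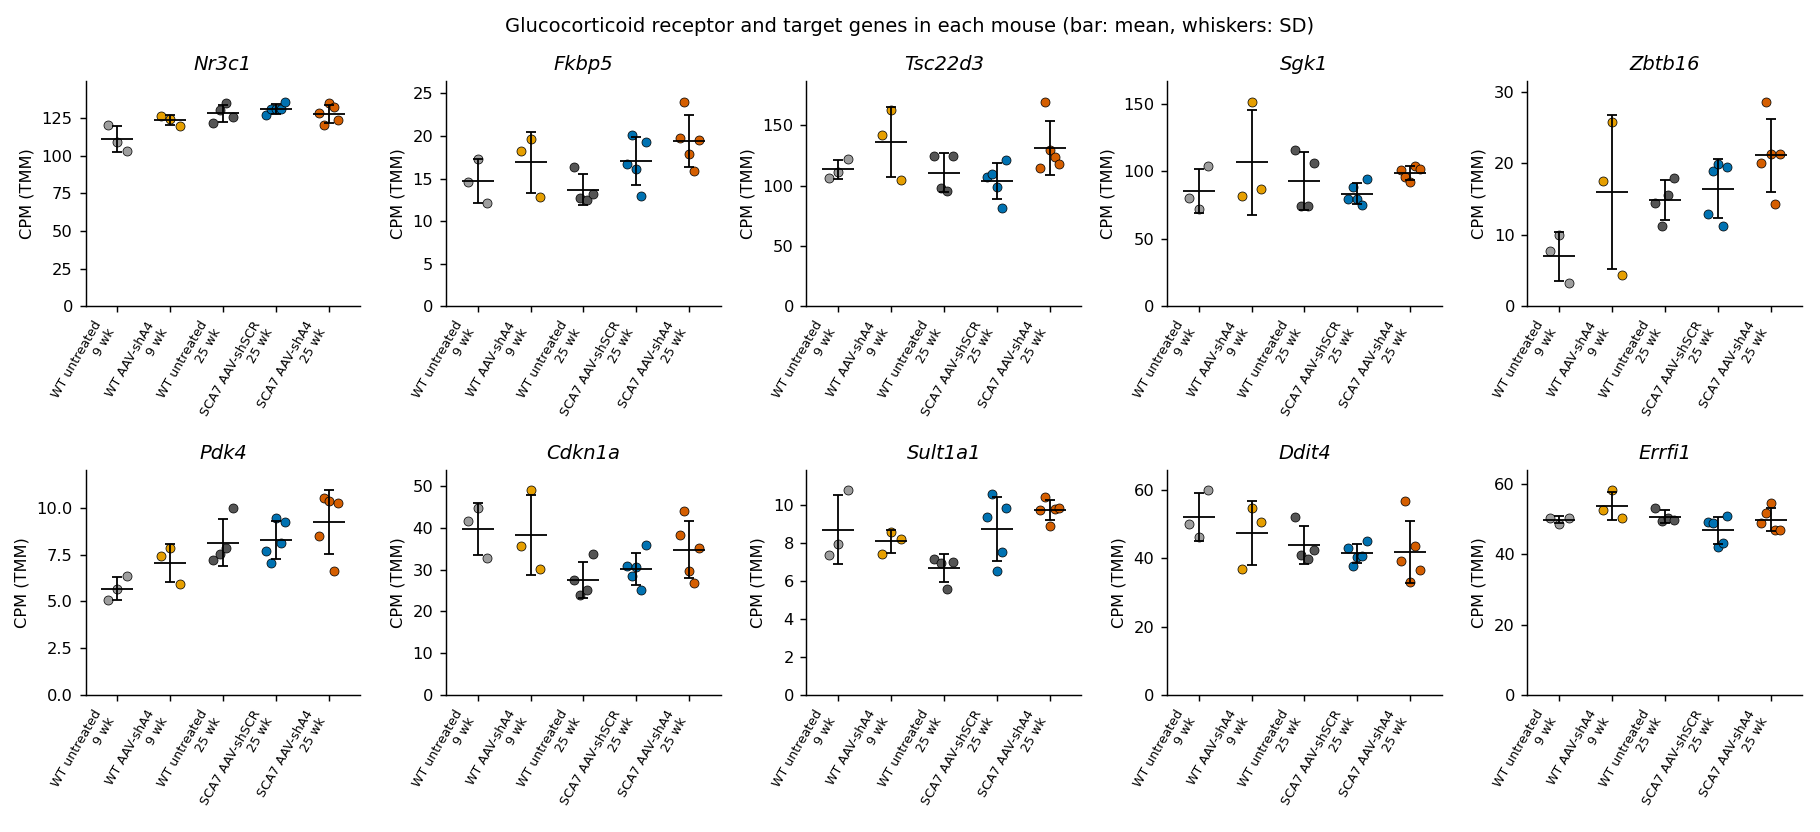
Level of each of the 10 genes in each of the 20 mice, in CPM with TMM scaling (vertical axes, starting at 0), for the 5 conditions (horizontal axes). Points are mice, horizontal bars are means and whiskers are the SD between mice. Nr3c1 stays between 103 and 136 CPM, whereas Zbtb16 spans 3.25 to 28.6 CPM.

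Nr3c1 (ENSMUSG00000024431) encodes the receptor itself. At 9 weeks the values were 126, 124 and 119.7 CPM in WT mice treated with AAV-shA4 and 120.4, 109 and 103 CPM in untreated ones. At 25 weeks its values were 128, 120.3, 135, 132 and 124 CPM in AAV-shA4-treated SCA7 mice, 127, 131, 131, 131 and 136 CPM in AAV-shSCR-treated SCA7 mice and 121, 130.1, 135 and 126 CPM in untreated WT mice. The 3 late groups overlap throughout, and the 2 lowest values of the 20 mice are those of untreated mice at 9 weeks.

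Fkbp5 (ENSMUSG00000024222, chromosome 17, 28399094 to 28517527 on build GRCm38, minus strand) encodes FKBP51, an immunophilin of the receptor complex that lowers the affinity of the receptor for its hormone. Its level at 9 weeks was 18.2, 19.7 and 12.9 CPM with AAV-shA4 and 14.6, 17.4 and 12.2 CPM without. At 25 weeks it was 19.8, 24.1, 17.9, 15.9 and 19.5 CPM in AAV-shA4-treated SCA7 mice, 16.7, 20.1, 16.1, 12.9 and 19.4 CPM in AAV-shSCR-treated SCA7 mice and 16.4, 12.7, 12.5 and 13.2 CPM in WT mice. Of the 5 AAV-shA4-treated SCA7 mice, 4 were above the highest late WT mouse and replicate 4 was just under it, whereas the AAV-shSCR-treated mice reached into the WT range with their lowest animals.

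Tsc22d3 (ENSMUSG00000031431, chromosome X, 140539528 to 140600659, minus strand) encodes GILZ, a leucine zipper protein that carries part of the anti-inflammatory action of glucocorticoids. At 9 weeks it was measured at 142, 162 and 105 CPM with AAV-shA4 and at 107, 112 and 122 CPM without. The late values were 115, 169.8, 129.7, 124 and 118 CPM with AAV-shA4, 107, 109.7, 99.3, 81.7 and 122 CPM with AAV-shSCR and 125, 98.0, 96.0 and 125 CPM in WT mice. AAV-shA4-treated replicate 2 stood above all other late mice, and the other 4 AAV-shA4-treated SCA7 mice overlapped with the AAV-shSCR group through its replicate 5 alone.

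Zbtb16 (ENSMUSG00000066687, chromosome 9, 48654297 to 48836222, minus strand) encodes the zinc finger repressor PLZF. It was the most variable gene of the group, at 17.6, 25.8 and 4.45 CPM in AAV-shA4-treated and 7.81, 9.94 and 3.25 CPM in untreated WT mice at 9 weeks. The late mice had 19.98, 28.6, 21.4, 14.3 and 21.3 CPM with AAV-shA4, 12.9, 18.9, 19.9, 11.2 and 19.4 CPM with AAV-shSCR and 14.4, 11.2, 15.6 and 17.9 CPM in WT mice. In both early groups replicate 3 was the lowest and replicate 2 the highest.

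Sgk1 (ENSMUSG00000019970, chromosome 10, 21882184 to 21999903, plus strand) encodes a kinase that acts on ion channels and transporters. In WT mice at 9 weeks it was at 81.9, 152 and 86.5 CPM with AAV-shA4 and at 80.4, 72.4 and 104 CPM without. Late values were 101, 95.7, 91.8, 104 and 101 CPM with AAV-shA4, 79.3, 88.0, 79.6, 75.2 and 94.5 CPM with AAV-shSCR, and 116, 74.7, 74.3 and 106 CPM in WT mice. The 5 AAV-shA4-treated SCA7 mice lay close together, above 4 of the 5 AAV-shSCR-treated mice, while the 4 WT mice spread on both sides of them.

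Pdk4 (ENSMUSG00000019577, chromosome 6, 5483351 to 5496309, minus strand) encodes a kinase that inhibits the pyruvate dehydrogenase complex. Its levels at 9 weeks were 7.42, 7.87 and 5.92 CPM with AAV-shA4 and 5.08, 5.64 and 6.35 CPM without. At 25 weeks they were 8.48, 10.5, 10.4, 6.60 and 10.2 CPM with AAV-shA4, 7.67, 7.03, 9.43, 8.09 and 9.22 CPM with AAV-shSCR and 7.22, 7.51, 7.82 and 9.96 CPM in WT mice. All late WT mice were above all early untreated WT mice, and the 3 late groups overlap.

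Sult1a1 (ENSMUSG00000030711, chromosome 7, 126672865 to 126676432, minus strand) encodes a phenol sulfotransferase. It was measured at 7.44, 8.60 and 8.22 CPM with AAV-shA4 and at 7.40, 7.96 and 10.8 CPM without at 9 weeks. The late values were 9.72, 10.4, 8.91, 9.81 and 9.83 CPM with AAV-shA4, 9.35, 10.6, 6.51, 7.51 and 9.85 CPM with AAV-shSCR and 7.16, 6.95, 5.57 and 6.99 CPM in WT mice. All 5 AAV-shA4-treated SCA7 mice were above all 4 late WT mice, and of the AAV-shSCR-treated mice 4 were above them and replicate 3 was within their range.

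Cdkn1a (ENSMUSG00000023067, chromosome 17, 29090976 to 29100727, plus strand) encodes the cell cycle inhibitor p21. Its levels were 35.7, 48.9 and 30.2 CPM with AAV-shA4 and 41.5, 44.6 and 32.7 CPM without at 9 weeks, and 27.6, 23.9, 25.05 and 33.7 CPM in WT mice at 25 weeks. In the SCA7 mice they were 38.3, 43.9, 29.7, 26.8 and 35.2 CPM with AAV-shA4 and 30.9, 28.5, 30.5, 25.2 and 35.8 CPM with AAV-shSCR. The 2 highest values were those of early mice, and the late groups overlap.

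The other 2 targets, Ddit4 (ENSMUSG00000020108, chromosome 10, 59949669 to 59951834, minus strand), an inhibitor of the mTORC1 complex, and Errfi1 (ENSMUSG00000028967, chromosome 4, 150853919 to 150868892, plus strand), an inhibitor of the EGF receptor, overlapped between all pairs of groups compared. Ddit4 ranged from 33.1 to 59.97 CPM and Errfi1 from 42.2 to 58.2 CPM over the 20 mice.

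To ask whether AAV-shA4 altered these genes in WT mice, the 3 treated and 3 untreated mice at 9 weeks were compared. Treated mice had a higher fitted level in 7 of the 10 genes, against 49.9% of all genes tested, but all 10 overlapped between the groups, whereas 16.0% of all genes did not, and 0 were called by edgeR or DESeq2. To be called, a gene needed an adjusted p under 0.05 by edgeR's quasi-likelihood test (Benjamini-Hochberg, over all genes tested) and a change of over 1.3-fold up or down, limits passed by 0.0543% of the 14733 genes tested here. The unadjusted p was under 0.05 in 3 of the 10 genes and in 11.1% of all genes. Fold changes below carry their standard error (SE). The summed levels of 2 of the 9 marker sets did not overlap in this comparison. Those of Bergmann glia and astrocytes were higher in treated mice (4594 to 4841 against 4282 to 4462 CPM, with 9 of 10 markers positive) and those of oligodendrocytes lower (7413 to 7733 against 8051 to 8342 CPM, with 9 of 10 negative), and their part in the result was not tested. The greatest difference was that of Zbtb16, 15.9 ± 10.8 CPM against 7.00 ± 3.42 CPM (n = 3 each, SD), with a log2 fold change of 1.19 (SE 0.50, adjusted p = 0.407). It was followed by Sgk1 with 0.32 (SE 0.20, adjusted p = 0.582), Pdk4 with 0.31 (SE 0.14, adjusted p = 0.426) and Tsc22d3 with 0.26 (SE 0.12, adjusted p = 0.453). An exact permutation test of 3 against 3 mice cannot give a p below 0.1, and the lowest among the 10 genes was 0.2. The differences lean on single mice, since without AAV-shA4 replicate 2 the log2 fold change of Sgk1 was −0.019 and that of Zbtb16 0.66, and without AAV-shA4 replicate 3 Tsc22d3 was called, with a log2 fold change of 0.42 (adjusted p = 0.0444).

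To see which of these genes differ in SCA7 mice with the control vector, the 5 AAV-shSCR-treated SCA7 mice were compared to the 4 untreated WT mice at 25 weeks. Sult1a1 was higher, at 8.76 ± 1.69 CPM (n = 5, SD) against 6.67 ± 0.738 CPM (n = 4, SD), a log2 fold change of 0.39 (SE 0.12, adjusted p = 0.0377). Sult1a1 was the only one of the 10 genes called, where 4.02% of the 14862 genes tested were called and 1.35% were called as higher. This fold change of 1.31 is just above the limit, the groups overlap as in all 10 genes (16.8% of all genes did not overlap), and the call was lost when any of AAV-shSCR replicates 1, 2 and 5 or WT replicates 2, 3 and 4 was left out (log2 fold changes of 0.31 to 0.41). It was also lost when the libraries of the other late group were left out of the fit (adjusted p = 0.0628), and an exact two-sided permutation test gave p = 0.0873. Fkbp5 had a log2 fold change of 0.31 (SE 0.13, adjusted p = 0.115) and was called only without AAV-shSCR replicate 4, at 0.40 (adjusted p = 0.0402). The values of Nr3c1 (0.036) and Pdk4 (0.032) were near 0, and those of Tsc22d3 (−0.094), Sgk1 (−0.15), Ddit4 (−0.085) and Errfi1 (−0.11) were negative, with adjusted p from 0.203 to 0.909 among these 6 genes.

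SCA7 mice given AAV-shA4 were compared to the same 4 WT mice, so this comparison shares its WT values with the preceding one. Here 2 of the 10 genes were called, Sult1a1 and Fkbp5, both higher in SCA7 mice, where 3.45% of all genes tested were called and 1.18% were called as higher. Sult1a1 was at 9.74 ± 0.548 CPM (n = 5, SD), a log2 fold change of 0.55 against WT mice (SE 0.12, adjusted p = 0.00588), and its call was kept with each mouse left out in turn (0.47 to 0.58). It was the only one of the 10 genes whose groups do not overlap, a separation found for 13.4% of all genes tested. The exact permutation test gave p = 0.00794, the smallest that 5 against 4 mice allow. Fkbp5 was at 19.4 ± 3.01 CPM (n = 5, SD) against 13.7 ± 1.79 CPM (n = 4, SD), a log2 fold change of 0.50 (SE 0.13, adjusted p = 0.0147). Its exact permutation p was 0.0238, and without WT replicate 3 the adjusted p rose to 0.0540. Zbtb16 with a log2 fold change of 0.51 (SE 0.19, adjusted p = 0.0906) and Cdkn1a with 0.34 (SE 0.13, adjusted p = 0.102) did not pass the limits with all mice. Both were called without AAV-shA4 replicate 4, at 0.62 and 0.42, and Cdkn1a also without WT replicate 4, at 0.45. The receptor gene Nr3c1 had a log2 fold change of −0.00071 (SE 0.037).

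**Figure D2:**
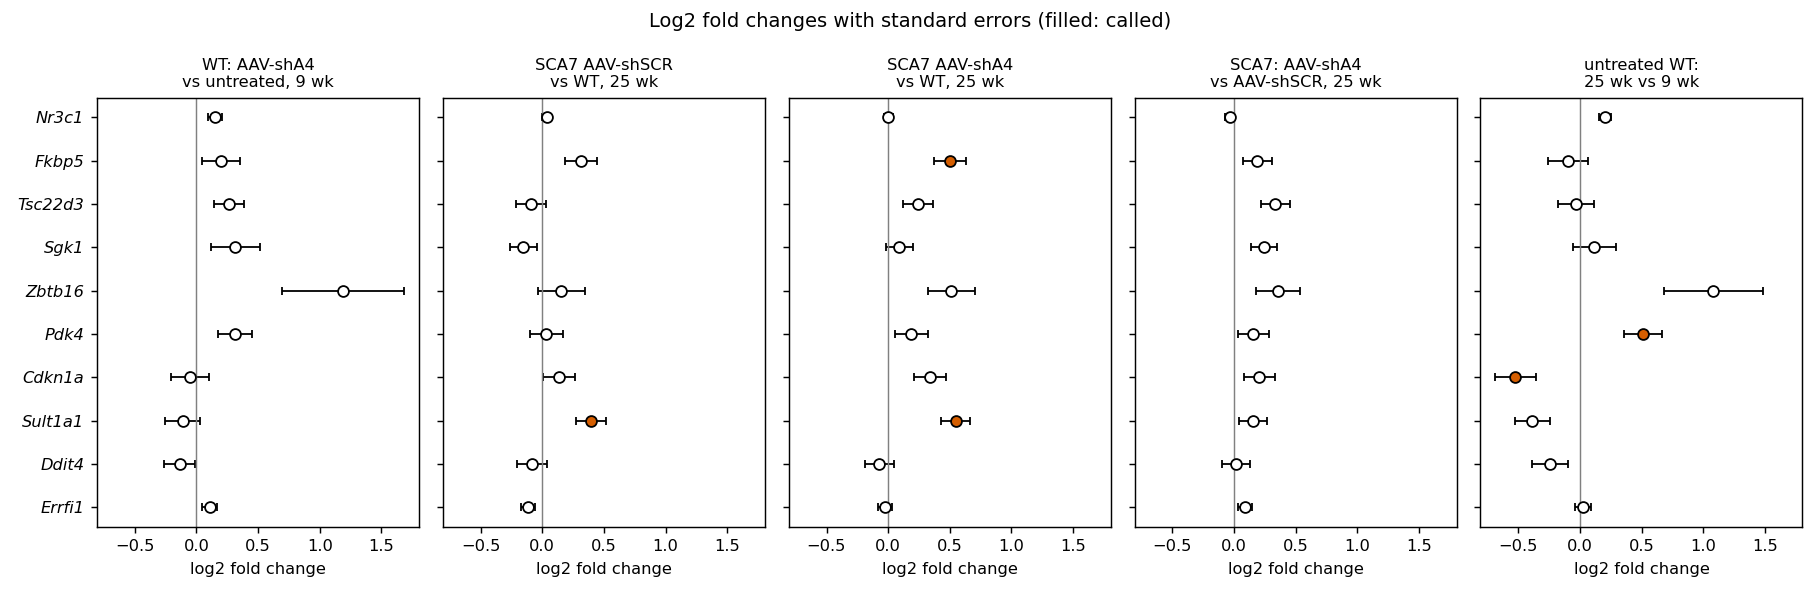
Log2 fold changes of the 10 genes (horizontal axes) in the 5 comparisons, from edgeR, with bars for the standard error. Filled points are called genes: Sult1a1 in both SCA7 groups against WT mice, Fkbp5 with AAV-shA4 against WT mice, and Pdk4 and Cdkn1a between untreated WT mice at 25 and 9 weeks.

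Within SCA7 mice, AAV-shA4 was compared to AAV-shSCR, a contrast in which genotype, time and vector are shared. Means were higher with AAV-shA4 in 9 of the 10 genes, against 50.1% of all genes tested, Nr3c1 being the exception with a log2 fold change of −0.037 (SE 0.035). The median over the 10 genes was 0.17, and over all genes tested 0.00021. None was called by edgeR, nor was any other gene (0.0% of 14862), although 1222 genes, 8.22% of those tested, had an unadjusted p under 0.05 and DESeq2 called 5 genes, with 0 of the 10 among them. Tsc22d3 was at 131 ± 22.3 CPM with AAV-shA4 and 104 ± 14.7 CPM with AAV-shSCR (n = 5 each, SD), a log2 fold change of 0.34 (SE 0.12, adjusted p = 0.527). Sgk1 was at 98.7 ± 4.86 CPM against 83.3 ± 7.79 CPM (n = 5 each, SD), a log2 fold change of 0.24 (SE 0.10, adjusted p = 0.577). As single genes they gave p = 0.0238 and p = 0.0159 in exact two-sided permutation tests, unadjusted for the 10 genes. The groups overlapped in all 10 genes, whereas 1.49% of all genes did not overlap. Several marker sets also leaned to one side, with no marker called. Positive log2 fold changes were seen for 9 of 10 oligodendrocyte markers (median 0.089) and 8 of 10 markers of Bergmann glia and astrocytes (median 0.058). The same held for 8 of 10 Purkinje cell markers (median 0.036) and 7 of 10 microglia markers (median 0.052). The summed levels of these sets overlapped between the groups. Of the endothelial and mural markers 7 of 10 were negative (median −0.038). Negative values were also seen for all 8 choroid plexus markers (median −0.36, summed level 51.9 to 3350 CPM with AAV-shA4 and 661 to 2973 CPM with AAV-shSCR), 5 of 6 blood markers (median −0.91, 36.8 to 39.4 and 32.2 to 60.5 CPM) and 8 of 10 granule cell markers (median −0.057). The granule cell set was the only one of the 9 whose summed levels did not overlap, at 6015 to 6767 CPM with AAV-shA4 and 6771 to 7002 CPM with AAV-shSCR. Their part in the result was not tested. Fkbp5 and Sult1a1, both called with AAV-shA4 against WT mice, differed between the SCA7 groups by 0.19 (SE 0.12) and 0.15 (SE 0.11), with adjusted p of 0.700 and 0.741, so a difference of either gene between the SCA7 groups was not shown. Without AAV-shA4 replicate 2, the mouse with the highest value of 7 targets, 8 of the 10 means were higher and the median was 0.11.

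The 4 late and 3 early untreated WT mice differ in age, and also in experiment and any batch, which cannot be told apart. The summed levels of 5 of the 9 marker sets did not overlap. In late mice they were lower for oligodendrocytes (5740 to 6796 against 8051 to 8342 CPM), granule cells (6409 to 7600 against 7708 to 8638 CPM) and blood (27.3 to 32.8 against 49.7 to 56.5 CPM), and higher for Purkinje cells (10733 to 12019 against 9918 to 10557 CPM) and microglia (209.6 to 237 against 186 to 198 CPM). Their part in the results was not tested. Pdk4 was higher at 25 weeks, at 8.13 ± 1.25 CPM (n = 4, SD) against 5.69 ± 0.638 CPM (n = 3, SD), a log2 fold change of 0.51 (SE 0.15, adjusted p = 0.0193). Cdkn1a was lower, at 27.6 ± 4.35 CPM against 39.6 ± 6.18 CPM (n = 4 and n = 3), a log2 fold change of −0.52 (SE 0.16, adjusted p = 0.0253). These 2 of the 10 genes were called, where 5.27% of the 15095 genes tested were called, and DESeq2 called 3 of the 10, Sult1a1 being the other. The call of Pdk4 was lost without early replicate 1 or 2 or late replicate 4, and that of Cdkn1a without early replicate 1 or 2 or late replicate 2 or 3. Nr3c1 had an adjusted p of 0.00396 but a small change, with a log2 fold change of 0.21 (SE 0.048). Zbtb16 reached 1.08 (SE 0.40, adjusted p = 0.0527) and was called without early replicate 2 or late replicate 2, and Sult1a1 had −0.39 (SE 0.14, adjusted p = 0.0542) and was called without early replicate 1. In 4 of the 10 genes (Nr3c1, Zbtb16, Pdk4 and Sult1a1) the groups do not overlap, against 33.4% of all genes.

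By the SD pooled over the 5 conditions, mice of the same condition differed in most targets much more than in the receptor gene. On the log2 scale this SD was 0.64 for Zbtb16, more than that of 99.2% of 13354 genes with a mean of at least 1 CPM. It was 0.26 for Sgk1 (93.5%), 0.25 for Cdkn1a (92.6%) and 0.24 for Fkbp5 (91.7%). Tsc22d3, Ddit4, Pdk4 and Sult1a1 lay between 0.20 and 0.22, and Errfi1 had 0.091 and Nr3c1 0.065, on either side of the median gene with 0.085. By this pooled SD these targets stood among the more variable genes of the cerebellum in these mice, with Errfi1 as the exception. The spread differed between conditions. For Zbtb16 the SD was 1.32 with AAV-shA4 and 0.83 without at 9 weeks, and 0.28 to 0.38 in the late groups. For Sgk1 it was 0.49 and 0.27 in these early groups. At 25 weeks it was 0.072 with AAV-shA4, 0.13 with AAV-shSCR and 0.33 in WT mice.

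**Figure D3:**
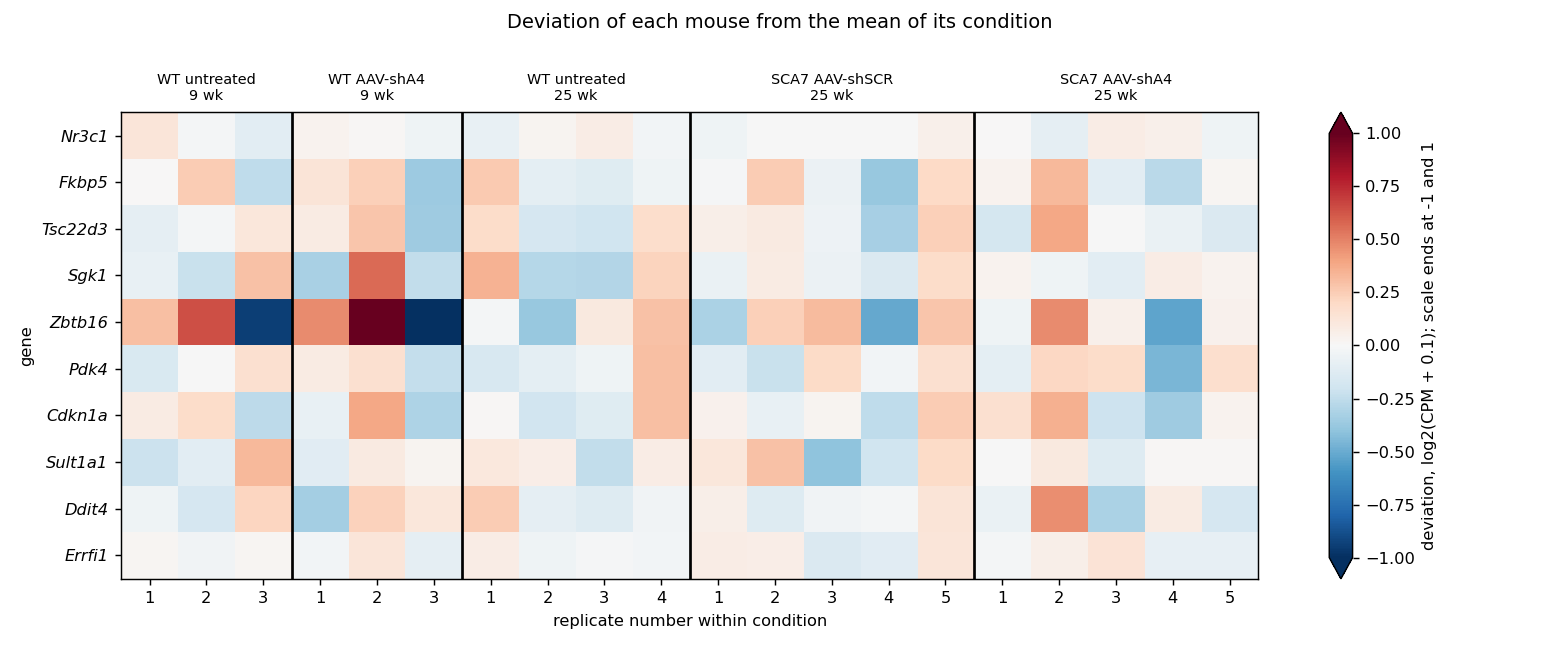
Deviation of each mouse (columns, by condition and replicate number) from the mean of its condition, for each gene (rows), as log2(CPM + 0.1). The colour scale ends at −1 and 1, and blue and red columns mark mice whose targets were low or high together, such as AAV-shA4-treated replicate 2 in WT mice at 9 weeks and in SCA7 mice.

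In most conditions single mice were high or low in many targets together. In WT mice at 9 weeks, AAV-shA4-treated replicate 2 had the highest value of its group in 9 of 9 targets and replicate 3 the lowest in 6. Among AAV-shA4-treated SCA7 mice, replicate 2 was the highest in 7 of 9 targets and replicate 4 the lowest in 5. In the AAV-shSCR group replicate 5 was above the group mean in 9 of 9 targets and replicate 4 in 0 of 9. Of the late WT mice, replicate 1 was the highest in 6 targets and replicate 4 in 3. Their median deviations from the group mean were 0.11 and 0.18 on the log2 scale. Replicate 3 was the lowest in 5 targets. The untreated WT mice at 9 weeks did not separate in this way, since each of the 3 was the lowest in 3 targets, and replicate 3 was also the highest in 5 and replicate 2 in 3. The share of all genes that were highest or lowest in the same mouse was not determined. These counts therefore do not show a trait particular to the targets.

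The covariation of the genes was then measured over the 20 mice after subtracting the mean of each condition, with permutation within conditions and adjustment over the 45 pairs of the 10 genes. In 5 pairs the adjusted p of Pearson's r was under 0.05. Fkbp5 and Zbtb16 had r = 0.791 (Spearman's rho 0.687, permutation p = 0.000430, adjusted p = 0.00967, n = 20), Zbtb16 and Cdkn1a r = 0.769 (rho 0.750, adjusted p = 0.00967 in the same permutation test), and Fkbp5 and Cdkn1a r = 0.766 (rho 0.746, adjusted p = 0.0157 in the same test). The other pairs were Fkbp5 and Tsc22d3, with r = 0.725 (rho 0.651, adjusted permutation p = 0.0342), and Sgk1 and Sult1a1, with r = 0.541 (rho 0.633, adjusted permutation p = 0.0470). Without the 2 mice farthest from the median of the first gene of each pair these 5 values of r were 0.725, 0.742, 0.705, 0.576 and 0.583. They were 0.696, 0.742, 0.688, 0.784 and 0.511 within the 14 late mice and 0.978, 0.917, 0.893, 0.621 and 0.640 within the 6 early mice. With the 14 late mice alone, 0 of the 45 pairs passed the adjusted limit. Nr3c1 was in none of these pairs, and its r with the 9 targets ranged from −0.543 for Ddit4 to 0.263 for Zbtb16. The genes of a mouse share its library, and the group was known to move together in earlier results of these data. These p-values thus describe the pairs and cannot serve as a fresh test of covariation. The share of all gene pairs with such values of r was not determined.

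**Figure D4:**
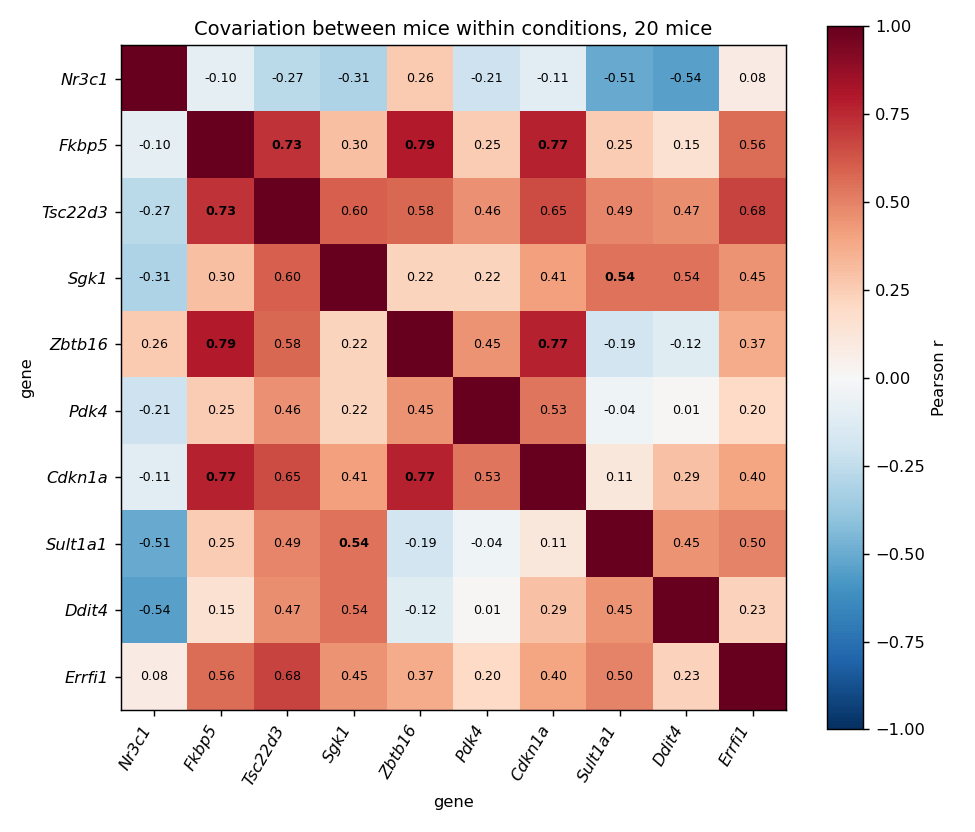
Pearson r of each pair of the 10 genes over 20 mice, after subtracting the mean of each condition from log2(CPM + 0.1). Colour and numbers give r, and bold numbers are the 5 pairs with an adjusted permutation p under 0.05, which join Fkbp5, Zbtb16, Cdkn1a and Tsc22d3, and Sgk1 with Sult1a1.

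Over the same 20 mice, the genes most like Fkbp5 among 13354 were Mertk (r = 0.862), a phagocytic receptor kinase, Nrros (0.853) and Map3k6 (0.850). Those most like Tsc22d3 were Gjb6 (0.895), an astrocyte connexin, Foxo1 (0.882) and Bcl6 (0.859), both transcription factors. For Sgk1 they were Tbc1d14 (0.780), 1700017B05Rik (0.771) and Nfkbia (0.759), the inhibitor of NF-kappaB, and for Nr3c1 Zfp148 (0.891), Neto2 (0.879) and Ube2j1 (0.869). Map3k6, Bcl6 and Nfkbia also belong to the list of other receptor targets below. These values of r share libraries and are a description, given with no test.

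A list of 28 other receptor targets, such as Per1, Klf9 and the metallothioneins, was all tested in each comparison. In SCA7 mice given AAV-shA4, 27 of the 28 had a higher mean than with AAV-shSCR, with a median log2 fold change of 0.16 against 0.00021 over all genes. The exception was Gpd1 with −0.033, named after its value was seen. By edgeR 0 of the 28 were called (0 by DESeq2), and 7 had an unadjusted p under 0.05, against 8.22% of all genes. The groups overlap in all 28, and 1.49% of all genes did not overlap. Map3k6 had the highest log2 fold change, 0.50 (SE 0.19, adjusted p = 0.540), followed by Txnip with 0.48 (SE 0.21, adjusted p = 0.584), both named after their values were seen. Klf9, a transcription factor induced by glucocorticoids, was at 327 ± 14.7 CPM against 299 ± 17.9 CPM (n = 5 each, SD), a log2 fold change of 0.13 (SE 0.041, adjusted p = 0.502). Per1, a clock gene that is also a receptor target, had 0.12 (SE 0.089, adjusted p = 0.749). Without AAV-shA4 replicate 2, 21 of the 28 means were higher and the median fell to 0.069, and without AAV-shSCR replicate 4 there were 24 with a median of 0.12.

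Against WT mice, 24 of the 28 had a higher mean with AAV-shA4 (median log2 fold change 0.25) and 18 with AAV-shSCR (median 0.051), where the medians over all genes were 0.0061 and 0.0017 and the shares of positive values 52.2% and 50.5%. With AAV-shA4 3 of them were called, all higher, where 3.45% of all genes were called and 1.18% were called as higher. Plin4, a lipid droplet protein, had a log2 fold change of 1.00 (SE 0.24, adjusted p = 0.0100). The others were Hif3a, a hypoxia-inducible factor, with 0.76 (SE 0.21, adjusted p = 0.0226), and Arrdc2, an arrestin domain protein, with 0.75 (SE 0.17, adjusted p = 0.00597). Plin4 was at 4.88 to 8.52 CPM in the 4 WT mice, 10.6 to 16.2 CPM in the 5 mice given AAV-shA4 and 6.43 to 17.5 CPM in the 5 given AAV-shSCR. With AAV-shSCR Plin4 was called as higher, at 0.99 (SE 0.24, adjusted p = 0.00994), and Rasd1, a small G protein, as lower, at −0.51 (adjusted p = 0.00706, named after its value was seen). Of all genes, 1.35% were called as higher and 2.66% as lower with AAV-shSCR. Without AAV-shA4 replicate 2 the median of the list against WT mice was 0.12, with 24 of 28 positive. With AAV-shSCR the median moved between 0.0034 (14 of 28 positive, without WT replicate 3) and 0.088 (20 of 28, without WT replicate 4) when 1 mouse was left out. In WT mice at 9 weeks, 15 of the 28 had a higher mean with AAV-shA4 (49.9% of all genes). By edgeR 0 were called and by DESeq2 2, and 10 had an unadjusted p under 0.05 (11.1% of all genes). The median was 0.023 (−0.0065 to 0.064 with 1 mouse left out). In 7 of the 28 the groups do not overlap (16.0% of all genes), all but Per1 named for this after their values were seen. Per1 (0.48) and Nedd9 (0.27) had higher values in treated mice, and lower values were those of Lcn2 (0.263 to 0.652 CPM with AAV-shA4 and 1.81 to 22.9 CPM without, log2 fold change −5.05, adjusted p = 0.0642), Angptl4 (−0.67), Mt2 (−0.36), Acer2 (−0.31) and Mt1 (−0.25).

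**Figure D5:**
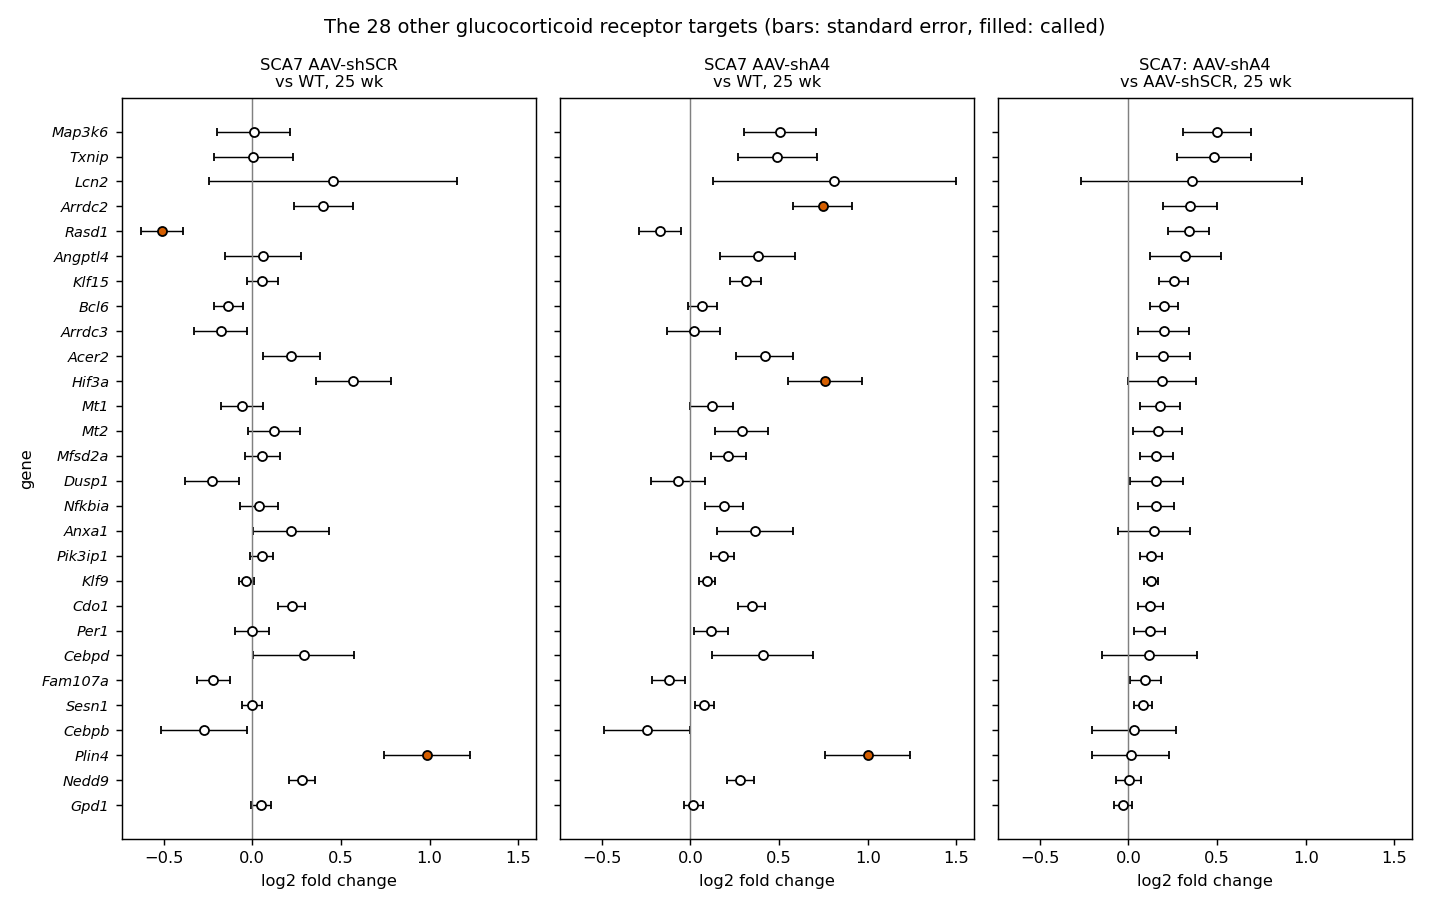
Log2 fold changes (horizontal axes) of the 28 other receptor targets in the 3 comparisons at 25 weeks, with bars for the standard error and filled points for called genes. The genes are ordered by the comparison of AAV-shA4 to AAV-shSCR, where 27 of 28 points lie above 0 and none is filled.

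Between untreated WT mice at 25 and 9 weeks, 7 of these 28 targets had a higher mean at 25 weeks (51.0% of all genes). Of the 28, 1 was called as higher and 5 as lower, where 5.27% of all genes were called. Per1 was the former, at 122 ± 14.1 CPM (n = 4, SD) against 85.3 ± 12.9 CPM (n = 3, SD), a log2 fold change of 0.51 (SE 0.12, adjusted p = 0.00361). The metallothioneins Mt1 and Mt2 fell by 0.60 and 0.77 on the log2 scale, and Angptl4, an inhibitor of lipoprotein lipase, and Lcn2, an acute phase protein, by 0.94 and 5.10. Lcn2 was at 1.81 to 22.9 CPM in the 3 early mice and 0.155 to 0.770 CPM in the 4 late mice. The fifth was Mfsd2a, a lysolipid transporter of the blood-brain barrier, which fell by 0.55 and is named after its value was seen. Mt1, Mt2, Angptl4 and Lcn2 were also lower, without a call, in the AAV-shA4-treated than in the untreated mice at 9 weeks, and both comparisons share the 3 untreated mice. The AAV-shA4-treated mice at 9 weeks had 0.395 CPM of Lcn2 and 1.98 CPM of Angptl4 on average, near the 0.389 and 1.64 CPM of the late WT mice, and 286 CPM of Mt1 and 203 CPM of Mt2, between the late (224 and 152 CPM) and the early untreated mice (340.2 and 259 CPM). Without late replicate 3 there were 12 of the 28 with a higher mean.

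Of 11 genes of hormone metabolism and signalling, 7 were tested at 25 weeks. Crhr1, the receptor of the corticotropin-releasing hormone, was the 1 gene of this list called in SCA7 mice against WT mice. Of all genes, 3.45% were so called with AAV-shA4 and 4.02% with AAV-shSCR. Crhr1 was at 83.8 ± 5.19 CPM with AAV-shA4 and 86.4 ± 3.33 CPM with AAV-shSCR (n = 5 each, SD) against 130 ± 14.5 CPM in WT mice (n = 4, SD). Its log2 fold changes were −0.63 (SE 0.062, adjusted p = 2.42e-06) and −0.59 (SE 0.062, adjusted p = 5.08e-06). Hsd11b1, which regenerates corticosterone, was at 68.1, 64.3 and 68.6 CPM on average in the same 3 groups, and Nr3c2, the mineralocorticoid receptor, at 43.6, 42.4 and 41.1 CPM. Neither was called in a late comparison or at 9 weeks between treated and untreated mice, but Nr3c2 was higher in untreated WT mice at 25 than at 9 weeks, by a log2 fold change of 0.60 (SE 0.066, adjusted p = 2.96e-06). The other gene of this list called in that comparison was Srd5a1, a steroid reductase named after its value was seen, at −0.53. Of all genes tested there, 5.27% were called.

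Chaperones and coregulators of the receptor, 22 genes, were all tested and 0 were called by edgeR or DESeq2 in any of the 5 comparisons. An unadjusted p under 0.05 was seen for 10 with AAV-shSCR and 8 with AAV-shA4 against WT mice (28.7% and 26.6% of all genes tested), 2 between the SCA7 groups, 0 at 9 weeks and 8 between untreated WT mice at 25 and 9 weeks (36.2% of all genes). The adjusted p was under 0.05 for 8 of the 22 with AAV-shSCR and 5 with AAV-shA4 against WT mice (15.5% and 13.6% of all genes), so these missed a call through the limit on fold alone. With AAV-shSCR 9 of the 22 did not overlap with WT mice, against 16.8% of all genes. The smallest adjusted p of these belonged to the acetyltransferase gene Crebbp, named after its value was seen, with a log2 fold change of 0.28 (SE 0.038, adjusted p = 7.74e-05).

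Of 15 clock genes, 11 had an unadjusted p under 0.05 between the WT mice at 9 weeks (11.1% of all genes) and 10 did not overlap (16.0% of all genes). Per2 was called, at 52.5 ± 3.59 CPM with AAV-shA4 and 28.3 ± 3.07 CPM without (n = 3 each, SD), a log2 fold change of 0.89 (SE 0.081, adjusted p = 0.00343). DESeq2 called 2 of the 15. Hlf, a clock output factor named after its value was seen, had 0.36 (SE 0.049, adjusted p = 0.0300), under the limit on fold. Per1 at 9 weeks had a log2 fold change of 0.48 (SE 0.11, adjusted p = 0.160), and its groups do not overlap. Between untreated WT mice at 25 and 9 weeks 3 clock genes were called, against 5.27% of all genes. Per2 (1.11) and Hlf (0.42) were called as higher and Npas2 (−0.52, named after its value was seen) as lower. In the late comparisons of SCA7 mice 0 of the 15 were called by edgeR or DESeq2. An unadjusted p under 0.05 was seen for 3 with AAV-shSCR and 4 with AAV-shA4 against WT mice (28.7% and 26.6% of all genes). Between the SCA7 groups it was seen for 0 (8.22% of all genes). Hlf, Arntl and Nfil3, all named after their values were seen, had an adjusted p under 0.05 against WT mice in both SCA7 groups and lay under the limit on fold. Their log2 fold changes were −0.23, −0.19 and −0.36 with AAV-shSCR and −0.17, −0.26 and −0.32 with AAV-shA4.

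Of 14 immediate early genes tested at 25 weeks, 5 were called as lower and 1 as higher with AAV-shSCR against WT mice, where 2.66% and 1.35% of all genes were so called, and DESeq2 called 7. They were Fosb (−1.22), Egr4 (−0.68), Nr4a2 (−0.65), Nr4a1 (−0.60) and, named after its value was seen, Egr1 (−0.49) as lower and Jun (0.43) as higher. With AAV-shA4 against the same mice, 3 were called as lower (2.27% of all genes), Egr4 (−0.87), Fosb (−0.77) and Nr4a1 (−0.46), and DESeq2 called 2. Between the SCA7 groups 0 of the 14 were called by edgeR or DESeq2. Positive log2 fold changes were seen for 9 (50.1% of all genes) and an unadjusted p under 0.05 for 3 (8.22% of all genes). A difference of these genes between the SCA7 groups was thus not shown. Of 15 tested between untreated WT mice at 25 and 9 weeks, 4 were called, against 5.27% of all genes. Npas4 (1.01), Fosb (0.92) and Nr4a1 (0.64) were higher and Jun (−0.51, named after its value was seen) was lower at 25 weeks. Clock and immediate early genes are known to vary with the time of day and with handling, which the labels do not give, and their part in the results was not tested.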

How the data were processed

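Cerebellar mRNA of 20 mice was measured by stranded single-read RNA-seq. The deposited counts are raw reads per gene that the authors made without normalization. Per the submitters' processing notes, bcl2fastq 2.20.0.422, cutadapt 1.10, Bowtie2 2.2.8, STAR 2.5.3a and HTSeq 0.6.1p1 were used. The genome build was GRCm38 (mm10) with Ensembl release 102. Whether reads were counted by strand is not given in the sources used here.

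Conditions were taken from the labels. Symbols, positions and transcript lengths were those of GENCODE M21, in which 55141 of the 55401 genes were found, and tests were run on protein-coding genes. The main test was the quasi-likelihood test of edgeR 4.0.16 in R 4.3.3 (TMM, filterByExpr with minimum count 10 and minimum total 15, no robust estimation). Fits held the 6 early libraries, the 14 late libraries, or all 20 for untreated WT mice at 25 against 9 weeks. Adjusted p-values are Benjamini-Hochberg values over all genes tested. DESeq2 1.42.0 was an alternative, and normalization, filter, libraries in the fit, a replicate block and each left-out mouse were varied. Permutation tests (scipy 1.17.1) used log2(CPM + 0.1), with 100000 resamples for correlations. The methods were tested on simulated data.

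Mice of one condition differed by more than counting noise (chi-squared per degree of freedom 4.87 to 26.1 over 32 pairs), and edgeR's common biological coefficient of variation reached 0.0729 (early) and 0.0790 (late). The labels do not state litters, so it is not known whether the mice are independent. The p-values treat each mouse as independent. The 10 genes and the lists were chosen with earlier results of these data known. Named beside the 10 genes were, in each comparison, up to 4 called genes per direction with the largest fold changes over the lists, always Per1, Klf9, Hsd11b1 and Nr3c2, and the 3 genes most correlated with each of Fkbp5, Tsc22d3, Sgk1 and Nr3c1. Genes named after their values were seen are marked so. Other data of the study were not used here.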

Additional observations from a re-analysis of the deposited data

Results flagged for a closer look

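In 2 of the 30 sets of 4 or 5 mice examined (10 genes in 3 late conditions), 1 mouse stood far from the others of its condition, and chance alone marks about 1 in 20 such sets. Tsc22d3 was at 169.8 CPM in AAV-shA4-treated SCA7 replicate 2, above the other 4 mice of the group at 115 to 129.7 CPM. Without this mouse its log2 fold change was 0.22 against AAV-shSCR-treated mice and 0.13 against WT mice, where the values with all mice were 0.34 and 0.24. Sult1a1 was at 5.57 CPM in untreated WT replicate 3 at 25 weeks, below the other 3 mice at 6.95 to 7.16 CPM. Without it, Sult1a1 was still called with AAV-shA4 against WT mice, at a log2 fold change of 0.47, and no longer with AAV-shSCR, at 0.31.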

How the results depend on the processing

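Direction and side of the limits were compared for the 10 genes in 5 comparisons, called or not. They were kept in 284 of 300 values under other normalization, filter, test, model or libraries in the fit. With 1 mouse left out they were kept in 364 of 410 values. Most values are of genes not called, and the exact permutation test in WT mice at 9 weeks could give no call. With 1 mouse left out, the call of Sult1a1 with AAV-shSCR was lost in 6 of 9 fits. With AAV-shA4 against WT mice calls were lost in 0 of 9 (Sult1a1) and 1 of 9 (Fkbp5). Between untreated WT mice they were lost in 3 of 7 (Pdk4) and 4 of 7 (Cdkn1a). The number of all genes called at 9 weeks was 8 and became 26 without a filter on low counts, 50 with DESeq2 and 20 with all 20 libraries in the fit, and 1 to 43 with 1 mouse left out (1 without AAV-shA4 replicate 2 and 43 without AAV-shA4 replicate 3). The number called of the 10 genes ranged from 0 to 1 at 9 weeks, 0 to 2 for AAV-shSCR against WT mice, 1 to 4 for AAV-shA4 against WT mice and 1 to 2 for WT mice at 25 against 9 weeks when 1 mouse was left out, and was 0 for AAV-shSCR against WT mice with only the libraries of both groups in the fit. Between the SCA7 groups DESeq2 called 5 genes, where edgeR called 0. Of the 5 covarying pairs, 0 passed in the 14 late mice alone, and 6 pairs passed with DESeq2 size factors. Signs turned in small values. Ddit4 between the SCA7 groups was −0.0078 as a difference of mean log2 levels. With 1 mouse left out, log2 fold changes at 9 weeks ran from −0.019 to 0.48 for Sgk1, −0.26 to 0.092 for Cdkn1a, −0.22 to 0.073 for Sult1a1 and −0.25 to 0.013 for Ddit4. For AAV-shSCR against WT mice they ran from −0.022 to 0.14 for Pdk4 and −0.13 to 0.0100 for Ddit4, and for AAV-shA4 against WT mice from −0.025 to 0.025 for Nr3c1, −0.0038 to 0.22 for Sgk1 and −0.21 to 0.024 for Ddit4. Between the SCA7 groups Ddit4 ran from −0.12 to 0.088, and for WT mice at 25 against 9 weeks Fkbp5 ran from −0.22 to 0.040, Tsc22d3 from −0.097 to 0.029 and Sgk1 from −0.0087 to 0.28. The causes were not tested. The positive counts of the 28 other targets under each setting were added after seeing the data. Depth limits listed genes such as Lcn2 and Fosb, with means under 1 CPM in some groups.

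The replicate numbers are shared between conditions, but nothing in the labels pairs the mice, and the deviations of same-numbered mice correlated with r from −0.213 to 0.465 over 16 pairs. A mouse correlated best with its own number in 1 of 3 cases at 9 weeks and in 0 of 5, 2 of 4 and 1 of 4 cases in the late groups. With a replicate block, 37 genes were called at 9 weeks, and of the 10 genes 1 at 9 weeks (Zbtb16), 0 for AAV-shSCR against WT mice and 1 for WT mice at 25 against 9 weeks. Under the block Pdk4 was at −0.016 for AAV-shSCR against WT mice and Nr3c1 at 0.011 for AAV-shA4 against WT mice.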
